A study of Mus musculus with 97 samples.

Results

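Captured regions of hippocampus were compared with captured regions of cortex in vehicle-treated mice carrying human APOE4. The libraries were chosen by their labels alone: all 8 named as APOE4 vehicle hippocampus and all 8 named as APOE4 vehicle cortex, which are 16 of the 97 libraries of the series.

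The mice were older human APOE knock-in mice, in which the human allele takes the place of the mouse gene. All 16 libraries share the APOE4 genotype and the vehicle, a mixture of 50% dimethyl sulfoxide and 50% phosphate buffered saline given into the peritoneum 2 times per week for 2 weeks. Brain sections of 8 µm were hybridised with the mouse Whole Transcriptome Atlas of the NanoString GeoMx Digital Spatial Profiler, an assay in which ultraviolet light frees the barcode tags of bound probes from a chosen region for sequencing. The other groups of the series carry APOE3, or received doxorubicin with docetaxel (DD) or with cyclophosphamide (DC). The labels do not tie regions to animals, so the captured region was the unit; wherever several regions came from 1 animal the p-values are too small, and they measure the spread between regions, which may be technical.

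The hippocampus is a folded archicortex of densely packed pyramidal and granule cells that serves memory formation, and the neocortex is a layered sheet with a wider range of projection neurons. Both hold the same broad classes of glia and vessels, while regional transcription factors and synaptic genes separate their neurons. A captured region mixes all of these cells, so fewer cells of a type and less RNA per cell cannot be told apart here.

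Total counts per library ran from 40154 to 92106 in hippocampus (median 48553) and from 36866 to 95612 in cortex (median 57313), with no pair of identical libraries (0). Most probes sat at the level of the negative probe, a set of probes with no target in the mouse genome, which had a median value of 2.03 counts in hippocampus and 2.42 in cortex (log2 difference -0.08, two-sided exact permutation test p = 0.729). The median gene of 19962 stood at 0.987 times the negative probe in hippocampus and 1.01 times in cortex. Only 40 genes had counts high enough to be tested (edgeR's filterByExpr, minimum count 10). The libraries hippocampus 3 and hippocampus 6 stood apart: 42 and 23 genes had at least 30 counts and over 5 times the count of every other library, against 0 to 4 genes in the other libraries.

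The labels of region could not be checked against regional markers. The 17 lists of regional and cell-type markers held 145 measured genes, of which 1, Olig2, had counts high enough to test. Median levels of the lists ran from 0.778 to 1.23 times the negative probe in hippocampus and from 0.774 to 1.27 times in cortex. Prox1, the transcription factor of dentate granule cells, had a median of 2.5 counts in hippocampus and 2 in cortex. Slc17a7, the vesicular glutamate transporter of forebrain excitatory neurons, had medians of 2 counts in hippocampus and 4.5 in cortex, and did not pass when all genes were tested (edgeR, adjusted p = 0.996). As multiples of the negative probe, Gfap (astrocytes) had medians of 1.31 in hippocampus and 0.869 in cortex, and Mbp (myelin) 0.778 in hippocampus and 1.15 in cortex. Neither passed when all genes were tested (edgeR, adjusted p = 0.996 for each). Members of both lists went either way. Aldoc (astrocytes) had 1.03 in hippocampus and 1.36 in cortex, and Mog (myelin) 1.67 in hippocampus and 0.632 in cortex. The mouse Apoe probe had a median of 1.5 counts in hippocampus and 1 in cortex; the labels do not say whether it binds the human transcript.

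The 40 tested genes split into a set that was lower in hippocampus and a set that was higher or level, depending on the scaling. With TMM, which centres each library on its tested genes, 32 of 40 passed an adjusted p of 0.05 in edgeR's quasi-likelihood test (80%), 16 higher in hippocampus (40%) and 16 lower (40%). With each library scaled to its negative probe, 22 of 40 passed (55%), of which 2 were higher (5%) and 20 lower (50%), and with scaling to library totals 3 were higher (7.5%) and 20 lower (50%). These other scalings moved the median tested gene by -0.64 and -0.62 on the log2 scale relative to TMM. The 16 genes lower with TMM stayed lower under both, by a median log2 of -0.97 with TMM and -1.62 with the negative probe. The 16 genes higher with TMM had a median log2 of 0.96 there and 0.30 with the negative probe. The sets were formed by the sign and the adjusted p of the TMM fold change, so these medians describe them and test nothing.

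**Figure D1:**
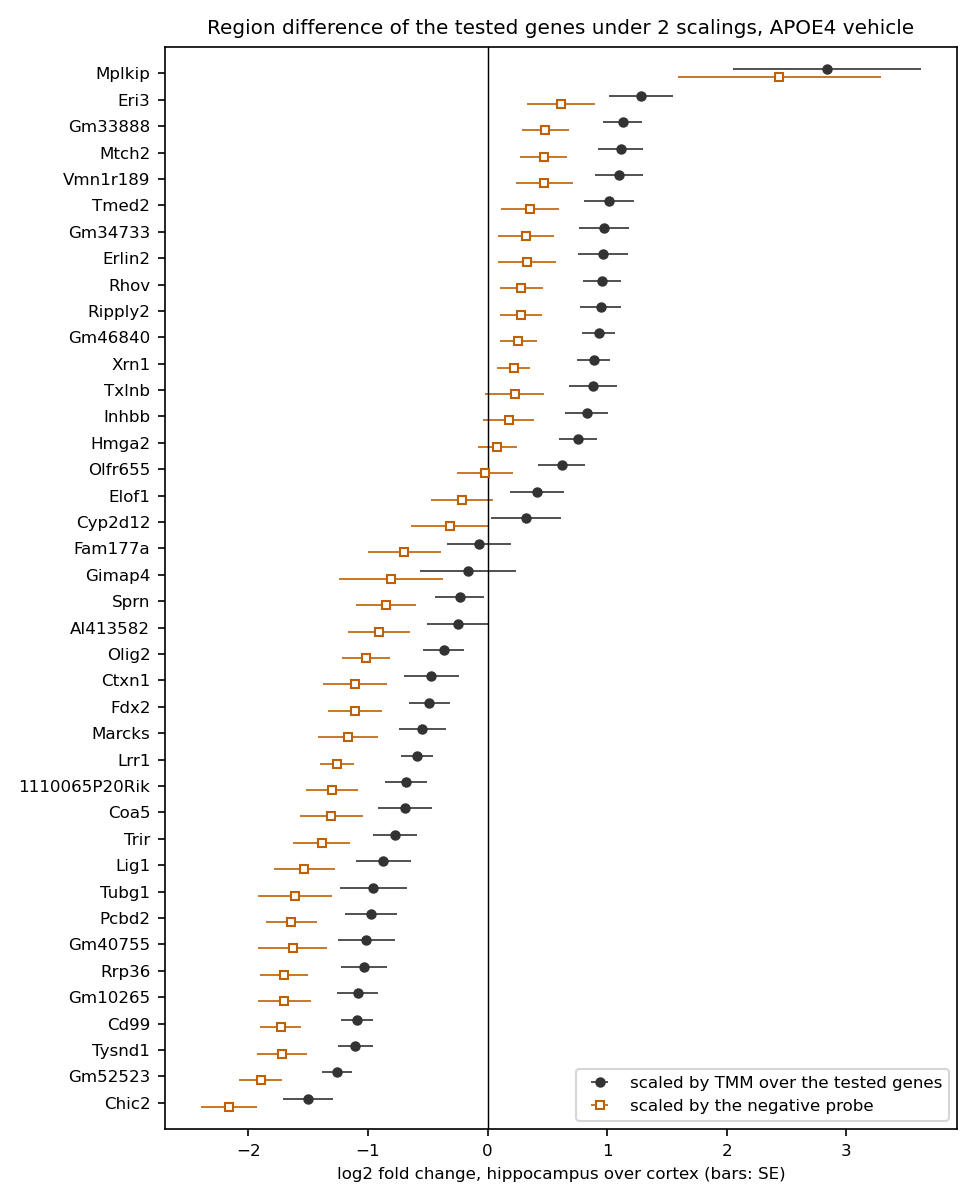
Log2 fold change of hippocampus over cortex (horizontal axis, bars SE, n = 8 libraries each) for each of the 40 tested genes (vertical axis), scaled by TMM (filled circles) or by the negative probe (open squares). The squares lie left of the circles throughout; the 16 genes at the bottom are below 0 under both scalings, while Olfr655 and 15 genes above it lie right of 0 with TMM and, apart from Olfr655 at -0.02, right of 0 but nearer to it with the negative probe.

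Library totals differed between regions by less than the spread between libraries (two-sided exact permutation test p = 0.579). Counts summed over the tested genes were 1896 to 5133 in hippocampus (median 3314.5) and 2517 to 7253 in cortex (median 4387.5). That sum was 1.25-fold lower in hippocampus, a difference within the spread between libraries (two-sided exact permutation test p = 0.245, adjusted together with that of the negative probe 0.489). The other permutation tests were not adjusted. The tested genes took 4.28% to 7.67% of total counts in hippocampus (mean 6.31%) and 6.23% to 7.68% in cortex (mean 7.22%, two-sided exact permutation test p = 0.067). The tested counts were also divided differently between genes. Mtch2 took 44.9% ± 9.10 of the tested counts in hippocampus and 27.9% ± 6.05 in cortex (SD, n = 8 each, two-sided exact permutation test p = 0.00109), and Gm10265 a median of 4.18% in hippocampus and 11.8% in cortex. Mtch2 had already passed with TMM in these libraries, so the p-value of its share is not a separate test. The ratio of Mtch2 to Gm10265 counts inside a library, which no scaling can alter, ran from 5.71 to 26.9 in hippocampus (median 9.66) and from 1.30 to 4.75 in cortex (median 2.11). The regions did not overlap in this ratio. These 2 genes were chosen for it after their values were seen.

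The sequence before the annotated start is shown for 2 genes of each set, to give the context of the genes described most fully. The bases come from RefSeq (GRCm38.p6), run 5′ to 3′ on the gene's strand, and stop at the annotated gene. Capitals mark matches, on either strand, to any of 4 motifs, and adjoining capitals can be overlapping matches. The TATA box was searched as TATAAA and the GC box as GGGCGG. The CCAAT box was searched by its 5 letters, and the E-box as CACGTG. Mtch2 is shown at chr2:90846905-90847089 (plus strand), Gm33888 at chr16:89129007-89129256 (plus), Chic2 at chr5:75044642-75044891 (minus) and Gm52523 at chr2:112240064-112240313 (minus).
Mtch2: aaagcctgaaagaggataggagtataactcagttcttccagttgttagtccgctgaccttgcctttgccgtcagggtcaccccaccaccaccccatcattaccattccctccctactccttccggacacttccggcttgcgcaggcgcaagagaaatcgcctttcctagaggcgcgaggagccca
Gm33888: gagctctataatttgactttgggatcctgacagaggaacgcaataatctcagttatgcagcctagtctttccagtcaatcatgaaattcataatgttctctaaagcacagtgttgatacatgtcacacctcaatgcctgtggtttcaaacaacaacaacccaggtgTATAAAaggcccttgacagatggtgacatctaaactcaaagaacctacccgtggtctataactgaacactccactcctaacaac
Chic2: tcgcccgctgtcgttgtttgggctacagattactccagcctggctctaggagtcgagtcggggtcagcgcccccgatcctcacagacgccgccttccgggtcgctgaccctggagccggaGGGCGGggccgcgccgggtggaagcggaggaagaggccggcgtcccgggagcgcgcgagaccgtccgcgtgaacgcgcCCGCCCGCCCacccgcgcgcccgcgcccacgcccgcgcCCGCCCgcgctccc
Gm52523: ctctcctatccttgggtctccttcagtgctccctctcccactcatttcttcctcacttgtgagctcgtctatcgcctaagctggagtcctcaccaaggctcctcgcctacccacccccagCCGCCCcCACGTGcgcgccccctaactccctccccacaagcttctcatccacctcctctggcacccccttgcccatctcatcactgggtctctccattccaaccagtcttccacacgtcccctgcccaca
The stretch before Mtch2, cut to 185 bases at the annotated gene, held 0 of the 4 motifs. That before Gm33888 held 1 TATA box, whose first base lies 84 bases before the start (-84). Chic2 held 4 GC boxes in a stretch with 76.4% G and C, and Gm52523 held 1 GC box and 1 E-box with 60.8% G and C. Counts over the sets used whole promoter windows of 250 bases, which were not cut at the annotated gene. TATAAA occurred in 4 of 13 windows (30.8%) of the TMM-higher genes, 1 of 17 windows (5.88%) of the lower genes and 12.4% of all 32851 windows. GGGCGG occurred in 6 of 13 windows (46.2%) of the higher genes, 10 of 17 (58.8%) of the lower genes and 32.7% of all. CCAAT occurred in 30.8%, 29.4% and 33.8% of these windows, and CACGTG in 0%, 5.88% and 6.02%. The table held windows for 13 of the 16 higher and 12 of the 16 lower genes. These are counts of letters, with no statement about binding.

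Among the lower genes, the membrane and vesicle protein Chic2 (chromosome 5, 75005004 to 75044641) differed most. Its level was 4.88 to 20.5 times the negative probe in hippocampus (median 15.2) and 43.7 to 93.0 times in cortex (median 61.5). Every hippocampus library lay below every cortex library. Its log2 fold change was -1.50 (SE 0.21, edgeR adjusted p = 5.88e-06) with TMM and -2.16 (SE 0.23, adjusted p = 1.39e-07) with the negative probe, which is 4.48-fold lower.

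Tysnd1 (chromosome 10, 61695500 to 61702773) encodes the peroxisomal protease that trims imported enzymes of fatty acid oxidation. It stood at 12.2 to 42.0 times the negative probe in hippocampus (median 27.2) and 77.4 to 101 times in cortex (median 91.5), again with no overlap. Its log2 fold change was -1.11 with TMM (SE 0.15, edgeR adjusted p = 3.63e-06) and -1.72 with the negative probe. It was the 1 tested member of 14 genes listed for peroxisomal beta-oxidation and import.

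Mitochondrial genes stood on both sides. Coa5, which helps to assemble respiratory complex IV, was at 4.15 to 19.2 times the negative probe in hippocampus (median 12.1) and 20.8 to 38.9 times in cortex (median 32.7). Fdx2, the ferredoxin that donates electrons for iron-sulfur cluster synthesis, was at 3.66 to 11.5 times in hippocampus (median 7.43) and 12.9 to 19.6 times in cortex (median 17.2). Neither gene overlapped between regions on this scale. Log2 fold changes with TMM were -0.69 for Coa5 (edgeR adjusted p = 0.00891) and -0.49 for Fdx2 (0.0134), and with the negative probe -1.31 and -1.11. With counts summed per plate row and region and the plate row as a block, the adjusted p of Fdx2 was 0.0735 with TMM, and with runs of wells as a random block it was 0.0508. They were the 2 tested genes of 20 listed for cytochrome c oxidase assembly and mitochondrial iron-sulfur proteins, and both passed, as did 80% of all tested genes.

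Mtch2 (chromosome 2, 90847090 to 90866810), an insertase of the outer mitochondrial membrane, had 662 to 2935 counts in hippocampus (median 1597.5) and 527 to 2833 in cortex (median 1091). Relative to the negative probe it stood at 359 to 897 times in hippocampus (median 710) and 325 to 715 times in cortex (median 462). These ranges overlap. Its log2 fold change was 1.11 with TMM (SE 0.19, edgeR adjusted p = 3.05e-05) and 0.47 with the negative probe (SE 0.20, adjusted p = 0.0514), so the call ended with that scaling; with the plate row as a block as well, the adjusted p was 0.0128. It was the 1 tested gene of 23 listed for the mitochondrial outer membrane.

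Genes of RNA handling also divided. Xrn1, the cytoplasmic exoribonuclease that degrades uncapped RNA from its 5′ end, was at 29.8 to 46.1 times the negative probe in hippocampus (median 34.2) and 22.0 to 38.1 times in cortex (median 31.7). Trir, a ribonuclease that interacts with the telomerase RNA component, was at 4.63 to 18.0 times in hippocampus (median 12.5) and 25.4 to 38.6 times in cortex (median 30.5). Xrn1 overlapped between regions and Trir did not. With TMM the log2 fold changes were 0.89 for Xrn1 (edgeR adjusted p = 2e-05) and -0.77 for Trir (0.000779), and with the negative probe 0.22 (adjusted p = 0.169) and -1.39 (4.3e-05). Rrp36, a factor of early ribosomal RNA processing, had a log2 fold change of -1.03 with TMM and -1.70 with the negative probe, and passed with both. Eri3, of a family of 3′ exoribonucleases, had 1.28 with TMM (adjusted p = 0.000303) and 0.62 with the negative probe (adjusted p = 0.065, and 0.0135 with the plate row as a block). None of the 74 measured cytosolic ribosomal protein genes reached the counts needed for testing (0).

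Genes of DNA replication and the cytoskeleton were lower. Lrr1, the substrate receptor of the cullin-2 ubiquitin ligase that unloads the replisome, was at 15.6 to 26.0 times the negative probe in hippocampus (median 20.1) and 40.7 to 61.7 times in cortex (median 46.0), with no overlap. Lig1, the ligase that joins Okazaki fragments, had 2 to 11 counts in hippocampus (median 4.5) and 13 to 23 in cortex (median 16.5). Tubg1, the gamma-tubulin of microtubule nucleation, had 1 to 12 counts in hippocampus (median 5.5) and 8 to 27 in cortex (median 21). At such counts a single read weighs heavily in hippocampus. Log2 fold changes with TMM were -0.59 for Lrr1, -0.87 for Lig1 and -0.96 for Tubg1, with edgeR adjusted p of 0.000454, 0.0018 and 0.00407. Marcks, a protein kinase C substrate that binds actin at the membrane, had -0.54 (adjusted p = 0.0155), with an adjusted p of 0.106 once counts were summed per plate row and region.

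The cell surface glycoprotein Cd99, which serves the passage of leukocytes through endothelium, was at 9.27 to 19.2 times the negative probe in hippocampus (median 14.1) and 40.6 to 53.9 times in cortex (median 44.3). The regions did not overlap. Its log2 fold change was -1.09 with TMM (SE 0.13, edgeR adjusted p = 1.7e-06) and -1.73 with the negative probe. Gimap4, a GTPase of lymphocytes and the other tested gene of 12 listed for leukocytes, had -0.16 (adjusted p = 0.703).

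Predicted genes made up a part of both sets. Gm52523 (chromosome 2, 112228823 to 112240063, protein coding, overlapping Lpcat4) had 46 to 111 counts in hippocampus (median 72.5) and 193 to 485 in cortex (median 288), without overlap. Gm10265, which the annotation table does not place, had 79 to 265 counts in hippocampus (median 116) and 364 to 677 in cortex (median 451), also without overlap. Their log2 fold changes were -1.26 (SE 0.13, edgeR adjusted p = 1.59e-07) and -1.09 (SE 0.17, 2e-05) with TMM, and -1.90 and -1.70 with the negative probe. Gm40755, a predicted gene that overlaps Pawr, had -1.01 and -1.63. The sequences that these probes bind were not used here, so a signal from an overlapping gene cannot be told apart.

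A pair of predicted genes of the higher set lies among genes for keratin-associated proteins on chromosome 16. Gm33888 (89129257 to 89133082), between Krtap6-3 and Krtap20-2, was at 73.2 to 175 times the negative probe in hippocampus (median 147) and 66.2 to 132 times in cortex (median 94.4). Gm34733 (89226811 to 89227103), between Krtap20-2 and Krtap21-1, was at 14.4 to 36.4 times in hippocampus (median 27.4) and 11.3 to 31.4 times in cortex (median 22.3). Both overlapped between regions on this scale. Gm33888 had a log2 fold change of 1.13 with TMM (SE 0.16, edgeR adjusted p = 6.47e-06) and 0.48 with the negative probe (SE 0.19, adjusted p = 0.0395). That second call was kept in 7 of the 16 fits that each left out 1 library, and it ended with the floor of 1 subtracted (adjusted p = 0.0996) and without hippocampus 3 and 6 (0.143). It was kept with the plate row as a block (0.00638). Gm34733 had 0.97 with TMM (adjusted p = 0.000324) and 0.32 with the negative probe (adjusted p = 0.215, and 0.0215 once counts were summed per plate row and region with that block). Gm46840, a long noncoding RNA gene on chromosome 4 (3231182 to 3258873), had 0.93 with TMM (adjusted p = 7.49e-06) and 0.26 with the negative probe (adjusted p = 0.166, and 0.0329 with the plate row as a block). With that block and the negative probe, 4 genes were higher, Gm33888, Mtch2, Eri3 and Gm46840, and 5 with sums per row, Gm34733 being the fifth.

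**Figure D2:**
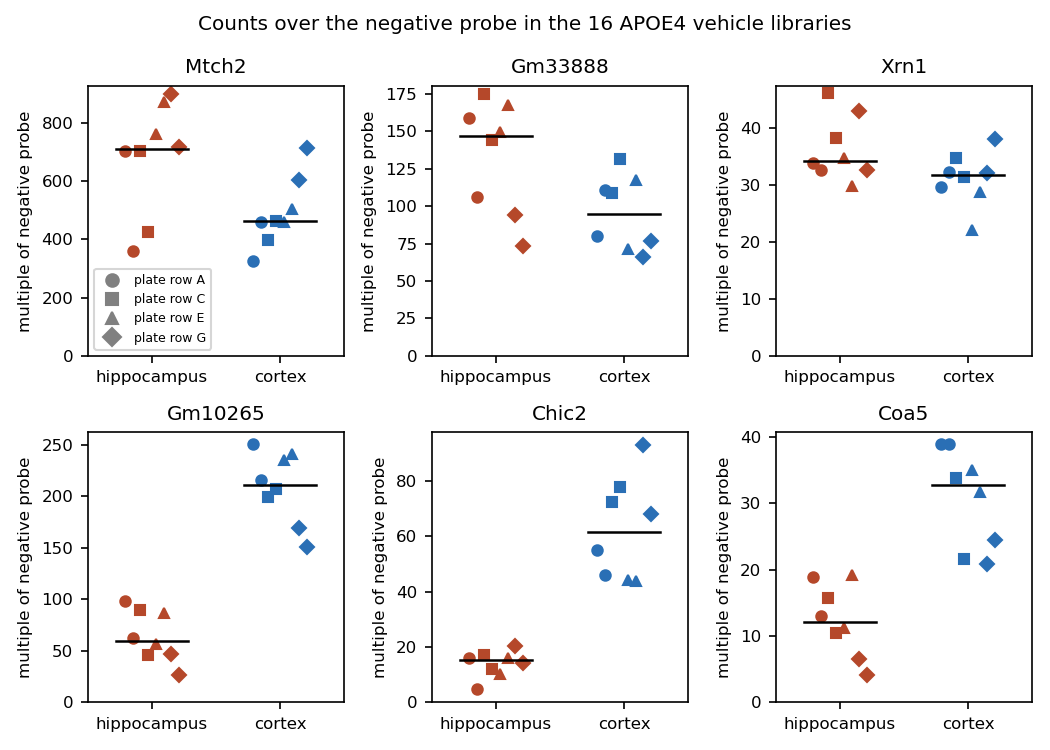
Counts divided by the negative probe of the same library (vertical axes, from 0) for 6 genes in the 8 hippocampus and 8 cortex libraries; each point is a library, its shape the plate row, and the line the median. Gm10265, Chic2 and Coa5 are below every cortex library in all hippocampus libraries, while Mtch2, Gm33888 and Xrn1 overlap.

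The other genes of the higher set passed with TMM and, apart from Mplkip, did not pass with the negative probe, with or without the plate row as a block. In what follows the first log2 fold change of a gene is with TMM and the second with the negative probe. Hmga2, a chromatin protein of embryonic tissue, was at 37.3 to 78.9 times the negative probe in hippocampus (median 46.6) and 35.6 to 54.2 times in cortex (median 47.0). Its medians were nearly level, and its log2 fold change was 0.75 with TMM (edgeR adjusted p = 0.000306) and 0.08 with the negative probe (adjusted p = 0.639). Erlin2, which serves degradation at the endoplasmic reticulum, had 0.96 and 0.33. The p24 cargo receptor Tmed2 had 1.02 and 0.35, the small GTPase Rhov 0.96 and 0.28, and the somite segmentation repressor Ripply2 0.95 and 0.28. Inhbb, the activin beta-B subunit, had 0.83 and 0.18, and the taxilin Txlnb 0.89 and 0.23. The vomeronasal receptor Vmn1r189 had 1.10 and 0.48, and the odorant receptor Olfr655 0.62 and -0.02.

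Mplkip, a gene whose human counterpart is mutated in a form of brittle hair disease, rested on 1 library. It had 4 to 484 counts in hippocampus (median 12) and 7 to 22 in cortex (median 14.5), and the 484 counts were in hippocampus 3. Its log2 fold change was 2.84 with TMM (SE 0.79, edgeR adjusted p = 0.00256), and 0.49 without that library (adjusted p = 0.0539). With the negative probe it was 2.44 (adjusted p = 0.0173) with all libraries and -0.19 without hippocampus 3, and with the plate row as a block the adjusted p was 0.154.

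Of the genes that did not pass with TMM, 4 of 8 were lower with the negative probe, the same share as among all tested genes (20 of 40, 50%). Olig2, the transcription factor of the oligodendrocyte lineage, was at 3.26 to 7.98 times the negative probe in hippocampus (median 4.69) and 8.45 to 13.9 times in cortex (median 9.07), with no overlap. Ctxn1, a small membrane protein of brain, was at 2.68 to 17.1 times in hippocampus (median 11.5) and 14.8 to 31.8 times in cortex (median 23.9). Sprn, the prion-like protein Shadoo, and AI413582 were the other two. With the negative probe the log2 fold changes were -1.02 for Olig2 (edgeR adjusted p = 0.00018), -1.11 for Ctxn1 (0.00117), -0.85 for Sprn (0.00557) and -0.91 for AI413582 (0.00466). With TMM they were -0.37, -0.47, -0.23 and -0.24, and the adjusted p for Olig2 was 0.0718. The other 7 measured genes of the oligodendrocyte lineage list were not testable, so Olig2 alone carries this value. Elof1, Cyp2d12, Fam177a and Gimap4 passed under neither scaling.

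Within plate rows the direction held. The 16 libraries lie in 4 plate rows (A, C, E and G), each with 2 hippocampus and 2 cortex libraries. All cortex libraries lie in plate columns 2 and 3 and all hippocampus libraries in columns 7 to 9, so region and plate column cannot be told apart. With TMM, 15 of the 16 higher genes were higher in 4 of 4 rows, Mplkip being the exception with 3, and 16 of 16 lower genes were lower in 4 of 4. Relative to the negative probe, the 16 lower genes were again lower in every row. The genes were called on these same 16 libraries, so the counts of rows describe the calls and do not test them. Mtch2 differed by 1.03 to 1.27 and Gm52523 by -1.44 to -1.09 across rows on the log2 CPM scale. Non-overlap of all libraries was rarer: 10 of 40 genes (25%) on the TMM scale, 3 of them higher and 7 lower, and 14 of 40 (35%) relative to the negative probe, 13 of them from the lower set, 0 from the higher set, and Olig2.

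**Figure D3:**
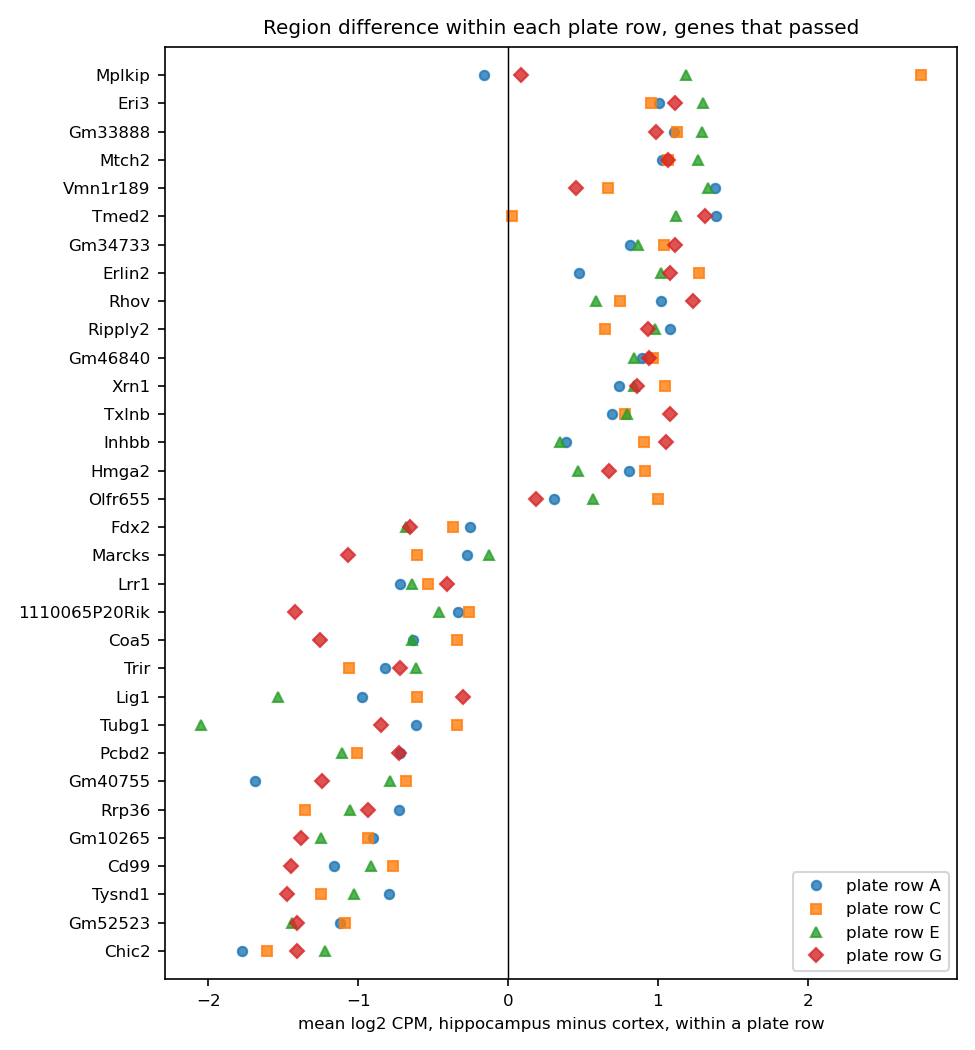
Mean log2 CPM of hippocampus minus cortex within each plate row (horizontal axis, TMM scale, 2 libraries of each region per row) for the 32 genes that passed (vertical axis). Every point of the lower set is left of 0, and of the higher set only Mplkip has a point left of 0, at -0.16 in row A.

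Testing all 19962 genes without a filter gave 70 calls (0.351%), 63 higher (0.316%) and 7 lower (0.0351%), of which 64 were not among the 40 genes. In 58 of the 64 the highest count was over 5 times the next, and in 35 it was in hippocampus 3; Apol7a, for example, had 1027 counts there and at most 4 in the other libraries. Without hippocampus 3 and 6 that test gave 18 calls, 6 higher and 12 lower. Without these libraries the 40 genes gave 15 higher and 16 lower by TMM. With the negative probe they gave 0 higher and 21 lower, so both higher calls of that scaling ended, and the log2 fold changes of Mplkip, Inhbb and Hmga2 fell below 0.

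The region difference was set against that in the other groups. Against APOE3 vehicle, 2 of 37 genes differed (5.41%), Gm52523 and Tysnd1, by -0.64 (SE 0.15, edgeR adjusted p = 0.00546) and -0.69 (SE 0.19, 0.0164) on the log2 scale. Gm52523 had medians of 72.5 counts in APOE4 hippocampus and 288 in APOE4 cortex, and 57.5 and 132.5 in APOE3. Tysnd1 had 53 and 227.5 in APOE4, and 43 and 73.5 in APOE3. Both were further below cortex in APOE4, yet with the negative probe as size neither passed (adjusted p = 0.748). The well names put every APOE4 library on one plate and every APOE3 library on another, so genotype and plate cannot be told apart.

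Against APOE4 DD, 1 of 66 genes differed (1.52%), Mplkip by 3.07, and against APOE4 DC 2 of 66 (3.03%), Mplkip by 2.37 and Gm9758 by -2.09 (edgeR adjusted p = 0.00153, 0.0177 and 0.0103). The Mplkip values include the 484 counts of hippocampus 3. Gm9758 had medians of 2 counts in APOE4 vehicle hippocampus and 9.5 in cortex, and 11 and 12 in APOE4 DC; with the negative probe its difference was -0.66 (adjusted p = 0.318).

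In the same fits, hippocampus differed from cortex in APOE3 vehicle for 21 of 37 genes (56.8%), in APOE4 DD for 50 of 66 (75.8%) and in APOE4 DC for 40 of 66 (60.6%). Of the APOE4 vehicle calls, 19 of 29 tested passed in the same direction in APOE3 vehicle, 31 of 32 in APOE4 DD and 27 of 32 in APOE4 DC. In APOE3 vehicle 3 had the opposite sign without passing: Pcbd2, a pterin dehydratase (0.16), Coa5 (0.11) and Marcks (0.21). Chic2 had log2 fold changes of -1.64 in APOE4 DD, -1.99 in APOE4 DC and -0.54 in APOE3 vehicle, and Mtch2 1.34, 0.73 and 1.85. With the negative probe, of the 20 genes lower in APOE4 vehicle, 13 of 20 passed as lower in APOE4 DD, 20 of 20 in APOE4 DC and 17 of 19 tested in APOE3 vehicle. Of all tested genes, 37.9%, 71.2% and 54.1% passed as lower there. All of these genes that were tested were below 0 in each group, but the share of all tested genes below 0 was not counted. In APOE4 DC the negative probe had medians of 10.9 counts in hippocampus and 4.26 in cortex, and 0 tested genes passed as higher with it. The part of that difference in the APOE4 DC counts was not tested. The ratio of Mtch2 to Gm10265 counts had medians of 7.53 in APOE4 DD hippocampus and 1.32 in APOE4 DD cortex, 8.33 and 1.45 in APOE4 DC, and 12.2 and 3.16 in APOE3 vehicle.

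**Figure D4:**
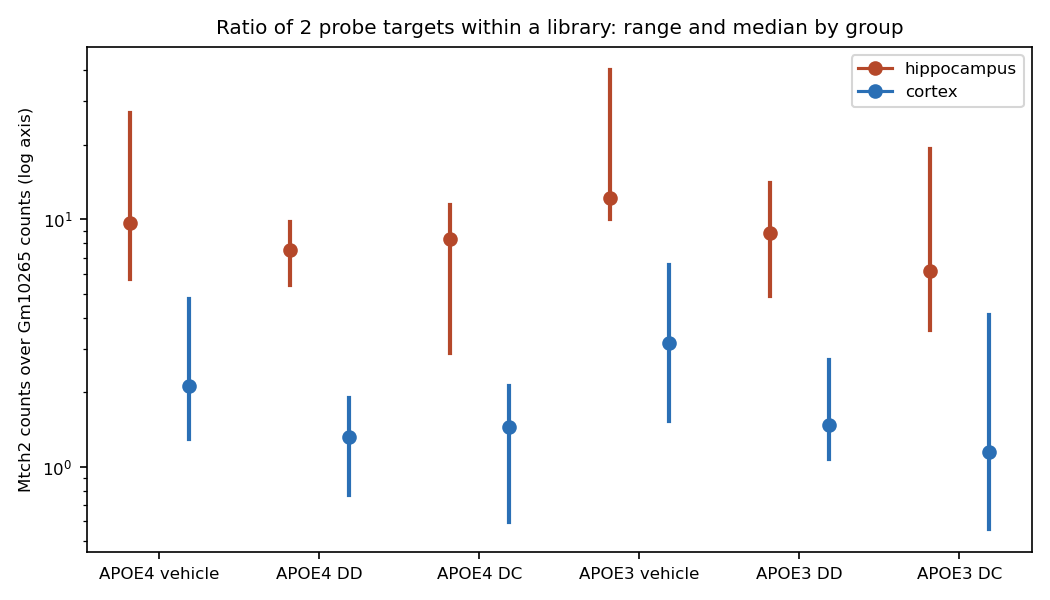
Ratio of Mtch2 counts to Gm10265 counts inside a library (vertical log axis), shown as the range (line) and median (point) of the libraries in each group, hippocampus beside cortex. The hippocampus range, 5.71 to 26.9 in APOE4 vehicle, lies above the cortex range, 1.30 to 4.75; APOE3 DC is the 1 pair in which the ranges overlap.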

How the data were processed

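Regions of mouse brain were profiled with GeoMx probes and NovaSeq sequencing, as the labels' protocols state. The deposited table holds expected counts per probe target made by the authors, not scaled to depth, with a lowest value of 1 and a combined negative probe; the submitters' processing notes name mm10, and the counting software is not given in the sources used here. Counts were rounded to whole numbers. Libraries were grouped by their titles. The members and gene lists were chosen with earlier results of these data known.

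The 16 libraries were fitted with edgeR 4.0.16 in R 4.3.3: filterByExpr (minimum count 10), TMM on the genes kept, quasi-likelihood F tests, and adjustment by Benjamini and Hochberg over every gene tested, at a threshold of 0.05. SE were derived from the F statistic. Log2 CPM used a prior count of 2 and the tested genes' summed counts as library size. The fit was tested on 20 simulated tables in which a minority of genes changed, as many raised as lowered. That setting cannot show how the scaling affects the direction of calls in these data. The first target for recovery was not met and was then lowered. Region differences between groups were interaction contrasts in the 4 vehicle groups or the 6 APOE4 groups. For library values, exact permutation tests were used, two-sided.

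Genes named are the 15 with the largest change in each direction among calls, the 8 with the highest mean level, those past the threshold in an interaction, those whose call ended without 1 library or plate row, at most 4 members of any list in the text, and Slc17a7, Prox1, Apoe, Gfap and Mbp; the rest, such as Olfr655 and the genes that did not pass, were named after their values were seen. Symbols of 39 of 40 tested genes matched the RefSeq table (GRCm38.p6), and the coordinates of Cd99 there are not used here. Some listed markers are not reported here; counts over the lists include them.

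Alternatives were upper-quartile, library-total and negative-probe scaling, DESeq2 1.42.0, limma 3.58.1 (trend, and voom with runs of wells as a random block), no filter or a minimum count of 5, the floor of 1 subtracted, plate row as a block, and fits with other groups or without single libraries and plate rows. A further filter kept genes with a median over 2 times the negative probe. Omission of hippocampus 3 and 6, and the combinations with negative-probe scaling, were chosen after seeing the data.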

Additional observations from a re-analysis of the deposited data

Results flagged for a closer look

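In 66 groups of 8 libraries checked for a value far from the rest, 2 were found; chance gives about 1 in 20 groups. Mplkip stood at 17.1 log2 CPM in hippocampus 3, with the next hippocampus library at 13.0, and this is the library with 42 genes raised in it alone. Rhov stood at 12.9 log2 CPM in hippocampus 6, below the next at 13.4.

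The region difference of 2 genes was larger in APOE4 vehicle than in APOE3 vehicle by the interaction test with TMM, with Gm52523 at -0.64 and Tysnd1 at -0.69 on the log2 scale. With the negative probe as size neither passed (edgeR adjusted p = 0.748), and genotype cannot be told apart from plate. Against the chemotherapy groups of the same plate, Mplkip differed by 3.07 from APOE4 DD and by 2.37 from APOE4 DC, and Gm9758 by -2.09 from APOE4 DC. The negative probe had a median of 10.9 counts in APOE4 DC hippocampus and 2.03 in APOE4 vehicle hippocampus; its part in these differences was not tested.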

How the results depend on the processing

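Beside 32 calls (16 higher, 16 lower) with TMM, genes higher in hippocampus numbered 3 with library totals and 2 with the negative probe as size, where the floor subtracted gave 2, the plate row as a replicate block 4, sums per row with that replicate block 5, and omission of hippocampus 3 and 6 0 higher and 21 calls. Lower genes stayed at 20 to 22 there when any 1 library was left out, and the same 20 genes were lower each time. Without any filter there were 70 calls (63 higher, 7 lower), with 6 of the 32 among them, and 18 (6 higher) without hippocampus 3 and 6. A minimum count of 5 gave 39 calls with TMM (20 higher, 19 lower). The filter at a median over 2 times the negative probe gave 42 (20 higher, 22 lower). Leaving out 1 library gave 31 to 34 calls with TMM (15 to 17 higher) and 21 to 24 with the negative probe (0 to 4 higher), and leaving out 1 plate row gave 29 to 34 with TMM. Under the replicate block all 32 calls remained; sums per row kept 30, with Fdx2 (adjusted p = 0.0735) and Marcks (0.106) lost, and runs of wells as a random block kept 30, with Mplkip (0.137) and Fdx2 (0.0508) lost. DESeq2 kept 32, upper-quartile scaling 30 and limma-trend 31; the fit of all 12 groups kept 30 and that of the 4 vehicle groups 27 of 29 tested. Calls of 29 genes remained whichever plate row was left out; the exceptions were Mplkip, which also ended without hippocampus 3 (adjusted p = 0.0539), Fdx2 and Marcks. None of the 16 APOE4 vehicle libraries had a negative probe of 5 or more, so none of them was left out on that ground. The fits with other groups kept all libraries, including those of APOE4 DC hippocampus, where the negative probe had a median of 10.9 counts. Leaving such libraries out of those fits was not tried. The log2 difference of Mplkip was -0.34 without a filter and hippocampus 3 and 6, -0.48 with the negative probe and without both, and -0.19 without hippocampus 3 alone; that of Hmga2 was -0.012 and -0.050 in the last 2 settings, and that of Inhbb -0.00342 without both libraries. The interaction with APOE3 vehicle (2 genes, and 8 at an unadjusted p below 0.05, in edgeR) gave 1 with upper-quartile scaling and 0 with library totals, the negative probe, DESeq2, no filter, a minimum count of 5 or the floor subtracted. That with APOE4 DD (1) gave 0 with DESeq2, 17 with no filter and 5 with a minimum count of 5. That with APOE4 DC (2) gave 1 with upper-quartile scaling, library totals and the negative probe, 39 with no filter, 4 with a minimum count of 5 and 0 with the floor subtracted. The negative probe difference, -0.08, was 0.030 without cortex 8 and -0.20 to 0.030 over all single omissions; the cause was not tested. The filter at a minimum count of 10 limited the main fit to 40 genes. Nearly all regional and cell-type markers lay near the negative probe (2 of 145 had medians over 2 times it in hippocampus, 4 in cortex), and differences in those below it were not detectable.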
